A study of Mus musculus with 2 samples.

Results

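To see how the liver set the messages of its oxidative machinery between fasting and feeding, the nuclear genes that encode the respiratory chain and its ATP synthase were examined on a pair of arrays of mouse liver RNA. The genes were chosen by symbol, as those named Nduf (complex I), Sdha to Sdhd (complex II), Uqcr and Cyc1 (complex III), Cox4 to Cox8 (complex IV) and Atp5 (complex V). This took 94 of the 20652 genes that a probe of the array could be assigned to, with 125 probes in all. The symbol rule also took 8 assembly factors of complex I named Ndufaf, which build the complex and do not stay in it. It placed Ndufa4 and Ndufa4l2 among the Nduf genes, and both are counted here with complex IV, where the protein of Ndufa4 is now placed. Atpif1 and Dmac2l, which act on complex V, fell outside the rule by their symbols.

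The study, which concerned thyroid hormone and glucose metabolism, deposited 1 array for each of 2 conditions. Each array carried the Cy3-labelled RNA of livers pooled from 3 male mice, and the methods name young adult C57BL/6 J mice for the study as a whole, whereas the labels of these samples give neither genotype nor age. The fasting mice went without food overnight, for about 14 to 16 h. The feeding mice are labelled both as given food after a fast and as fed ad libitum, so the time since their last meal is not known. With 1 pooled array for each condition, the difference between conditions has no replicate and no test, and the values that follow describe these 2 pools.

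The respiratory chain sits in the inner mitochondrial membrane. Complexes I and II pass electrons from NADH and succinate to coenzyme Q, complex III hands them on to cytochrome c, complex IV gives them to oxygen, and the protons pumped along the way drive complex V, the ATP synthase. Most of the subunits are encoded in the nucleus, made in the cytosol and imported, and they are assembled with a few subunits encoded by mitochondrial DNA. Liver is rich in mitochondria, and hepatocytes oxidise fatty acids during a fast and carbohydrate after a meal.

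The nuclear messages of the chain were strongly expressed on both arrays and differed little between them. Of the 94 genes, 92 stood clear of background on 1 or both arrays, and 83 of these lay in the brightest of 3 equal groups of genes ranked by signal. The 2 genes without a measured probe were Cox7b2, with a processed signal of 3.26 upon fasting against 1.74 upon feeding, and Cox8c, with 3.47 against 1.47. Both encode isoforms known from other tissues, testis above all. Changes are given as log2 of feeding over fasting after quantile normalization, so that a positive value is higher upon feeding, whereas the signals quoted are those before normalization, in arbitrary units. The median change of the 92 genes was 0.14, with quartiles of 0.02 and 0.27, against a median of 0.00 for all 16346 genes measured and 0.02 for the 5449 genes of the brightest group. Upon feeding, 71 of the 92 (77.2%) were higher, whereas 47.7% of all genes and 51.8% of the brightest group were. The count moved with the scaling, to 80 when each array was divided by its 75th percentile, where 47.0% of all genes and 59.6% of the brightest group were higher, and to 86 when it was divided by its median, where 58.3% and 72.2% were. The 6 genes still lower in the last case were Ndufaf6, Cox4i2, Cox6a2, Cox6b2, Ndufa4l2 and Atp5d. The values of all genes also depend on dim probes, since a probe well above background on only 1 array gives a bound. A bound that points the wrong way is set to 0 and counts as not higher. Without bounds the median of all genes was 0.03 and 52.4% of them were higher. The chain kept its median and its 71 higher genes, and lay 0.11 above all genes.

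Only Ndufaf4 passed 2-fold, upwards, and no gene of the chain passed 2-fold downwards. This 1 gene of 92 stands beside 7.92% of all genes measured and 5.8% of the brightest group past 2-fold in either direction. Among all genes measured 3.29% passed 2-fold upwards and 4.63% downwards, and in the brightest group 2.09% and 3.71%. Past 1.5-fold were 3 genes that were higher, Ndufaf4, Ndufaf8 and Cox7a1, and 1 that was lower, Cox6b2, beside 10.5% and 10.6% of all genes in these directions and 8.61% and 8.74% of the brightest group. In either direction 4 of the 92 thus passed 1.5-fold, against 21.1% of all genes and 17.3% of the brightest group. Changes within 0.5 log2 of none were found for 83 of the 92 (90.2%), for 73.8% of all genes and for 77.3% of the brightest group. When assembly factors and tissue-restricted isoforms were set aside, the 78 remaining subunit genes had a median of 0.13, 62 were higher and 16 lower, none passed 1.5-fold, and the furthest from 0 was Ndufb10 at 0.53.

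**Figure D1:**
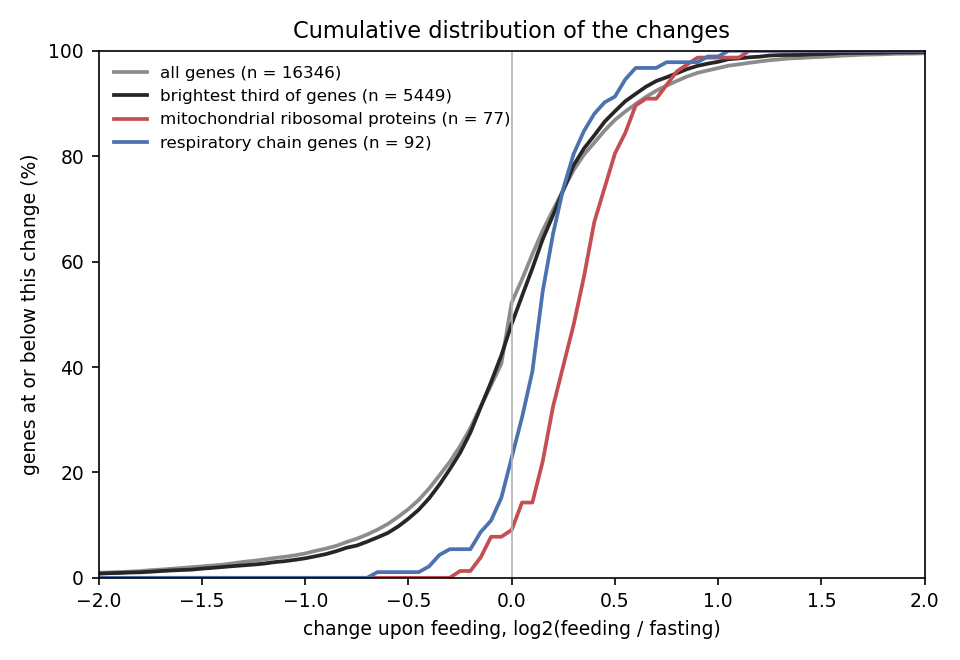
Share of genes (vertical axis, percent) whose log2 change, feeding over fasting (horizontal axis), is at or below each value, for the 92 respiratory chain genes, the 77 mitochondrial ribosomal protein genes, all 16346 genes and the 5449 genes of the brightest group. The curve of the respiratory chain genes is steeper than that of all genes and lies to its right around 0, with a median of 0.14 against 0.00.

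How far such small differences exceed the scatter of spots within an array could be read from probes that both arrays carried in 10 spots. From this scatter the difference between 1 spot on each array had an SD of 0.09 log2 in the brightest group, 0.14 in the middle group and 0.44 in the dimmest. Uqcrc2, a core subunit of complex III, was the only gene of the chain printed in this way. Its 10 spots read from 23189 to 26174 upon fasting, with a mean of 25168 ± 989 (SD), and from 23843 to 26450 upon feeding, with a mean of 25414 ± 799. The 2 ranges overlapped. The change, averaged over the 10 spots, was 0.04, and the SD for a difference between single spots was 0.07. Past 2 such SDs were 37 of the 92 genes, 32 upwards and 5 downwards. Of all genes measured 42.1% passed this limit, 21.7% upwards and 20.4% downwards, and of the brightest group 60.6%, 32.1% upwards and 28.5% downwards. Counted in either direction, the 37 of 92 genes were thus no larger a share than the background. By the wider error that Feature Extraction assigns to each spot, with a median SD of the difference of 0.20, 11 did, 10 upwards and 1 downwards, beside 30.1% of all genes (15.0% upwards and 15.1% downwards) and 30.4% of the brightest group (15.6% and 14.8%). The 10 upwards by this wider error were Ndufaf4, Ndufaf8, Cox7a1, Ndufaf7, Ndufb10, Ndufs7, Ndufa12, Ndufaf3, Atp5g1 and Ndufa8, and the 1 downwards was Cox6b2. Sdhd, Cyc1, Atp5h, Atp5d, Cox4i2, Ndufa4l2 and Ndufaf6 passed 2 spot SDs but not 2 SDs of the wider error. Neither spread contains the variation between mice. The spread over spots also leaves out any error that all spots of a probe on an array share.

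Probes of 1 gene gave a further look at the error. Of the 23 genes with 2 or more measured probes, 19 had all probes moving in 1 direction, and the range between probes had a median of 0.11. The probes of Cox7a2l, Cox7c, Sdhc and Uqcrq moved in both directions. The widest range was that of Cox7c, a small structural subunit of complex IV: its brightest probe read 27532 upon fasting and 27745 upon feeding, a change of 0.06, its second 10543 and 10066, a change of -0.07, and its dimmest 188 and 212, a change of 0.37. The genome also holds 19 pseudogenes whose symbols match the rule, and whether their transcripts bind these probes was not tested.

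**Figure D2:**
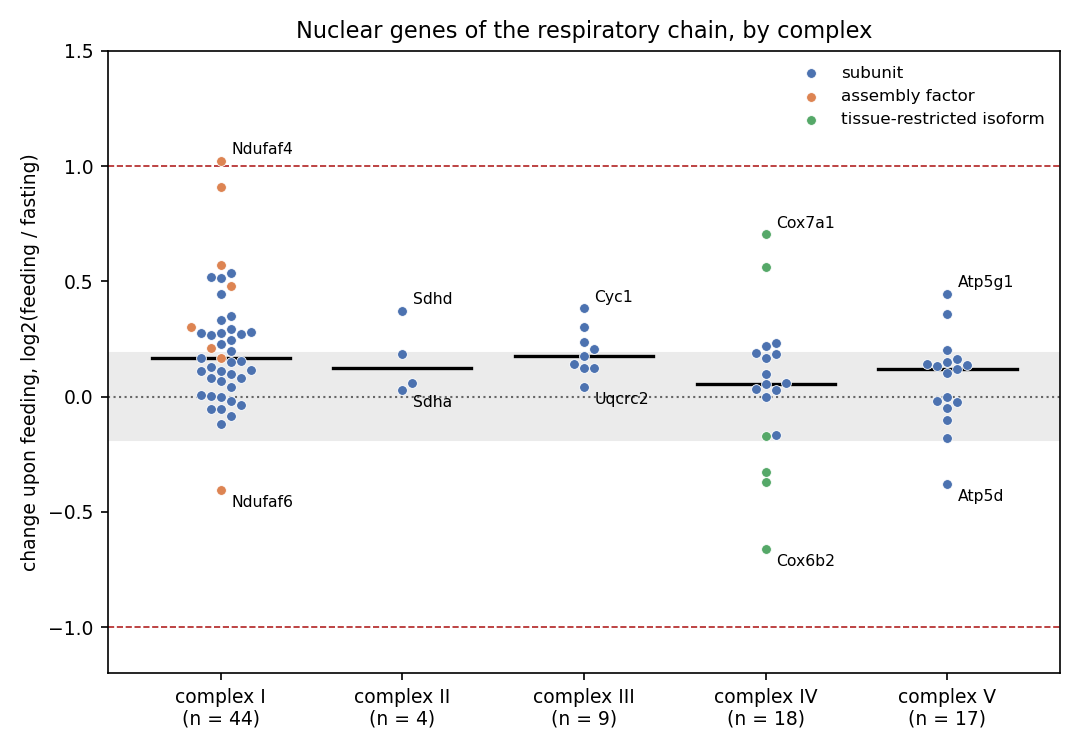
Log2 change, feeding over fasting (vertical axis), of each of the 92 measured genes, grouped by complex. Points are genes, black bars the medians of the complexes, the dotted line the median of all genes, the dashed lines 2-fold, and the grey band 2 SDs of a difference over replicate spots in the brightest group. Complex medians lie between 0.05 and 0.18, and the widest changes belong to assembly factors and tissue-restricted isoforms.

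Complex I, which oxidises NADH, had a median change of 0.17 over 44 genes, of which 36 were higher and 8 lower. Its assembly factors stood furthest from 0, with a median of 0.39 over 8 genes, 7 of them higher, against 0.16 for the 7 core subunits and 0.11 for the 29 supernumerary subunits. The signal of Ndufaf4, which helps to build the quinone-binding module, was 4306 upon fasting and 8545 upon feeding. This was a change of 1.02, or 2.03-fold, and its second probe, at 1690 and 2880, changed by 0.81. Ndufaf4 remained higher under all alternatives but was no longer past 2-fold when the background was corrected by normexp (0.98) or when its probes were averaged (0.92).

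Ndufaf8, which stabilises another assembly factor, Ndufaf5, read 616 upon fasting and 1072 upon feeding, a change of 0.91. Ndufaf7, a methyltransferase, read 1020 and 1431, a change of 0.57. Ndufaf3, the partner of Ndufaf4, read 574 and 738, a change of 0.48. These 3 were thus higher upon feeding by more than 2 spot SDs, though below 2-fold. Ndufaf1 and Ndufaf2, which act on the membrane arm and late in assembly, differed less, by 0.17 and 0.21. Ndufaf5, which hydroxylates Ndufs7, was dim on both arrays, at 49.9 and 52.8, and its change of 0.30 was under the spot SD of the dimmest group. Ndufaf6 was the only assembly factor that was lower, at 2929 upon fasting and 2146 upon feeding, a change of -0.41.

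The promoters of Ndufaf4 and Ndufaf8, the 2 genes with the largest positive changes, are shown with that of Sdhd, the complex II gene with the largest change, because letters of 2 regulators of the chain occur in them. NRF1 and GABPA, also called NRF2, are transcription factors known to bind many nuclear genes of the respiratory chain. Each sequence is the 250 bases before the start of the gene, from RefSeq on GRCm38.p6, and capitals mark a match on either strand to the letters of NRF1 (GCGC and TGCGC with any base between them) or of GABPA (CCGGAAG). Ndufaf4 lies on the + strand at chr4:24897833-24898082, Ndufaf8 on the + strand at chr11:120098684-120098933, and Sdhd on the - strand at chr9:50603850-50604099.
Ndufaf4: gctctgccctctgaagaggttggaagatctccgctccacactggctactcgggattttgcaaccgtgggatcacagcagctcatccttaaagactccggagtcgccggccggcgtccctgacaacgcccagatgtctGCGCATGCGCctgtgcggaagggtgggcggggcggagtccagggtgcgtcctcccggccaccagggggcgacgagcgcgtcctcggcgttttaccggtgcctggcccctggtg
Ndufaf8: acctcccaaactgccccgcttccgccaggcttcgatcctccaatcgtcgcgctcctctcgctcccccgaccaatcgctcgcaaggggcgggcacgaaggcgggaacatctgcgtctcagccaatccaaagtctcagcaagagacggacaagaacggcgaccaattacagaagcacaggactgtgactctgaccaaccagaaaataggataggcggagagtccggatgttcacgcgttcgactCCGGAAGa
Sdhd: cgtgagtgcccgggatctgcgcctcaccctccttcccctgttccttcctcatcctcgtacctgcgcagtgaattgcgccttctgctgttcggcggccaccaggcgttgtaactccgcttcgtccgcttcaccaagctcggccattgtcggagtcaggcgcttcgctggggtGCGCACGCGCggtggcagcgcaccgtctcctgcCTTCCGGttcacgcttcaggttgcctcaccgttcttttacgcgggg
The NRF1 letters began 113 bases before the start of Ndufaf4 and, on the other strand, 79 before that of Sdhd. The GABPA letters began 8 bases before the start of Ndufaf8 and, on the other strand, 46 before that of Sdhd. These promoters were picked because they hold a match. The genes with the next largest positive changes, Cox7a1, Ndufaf7, Cox8b, Ndufb10, Ndufs7, Ndufa12, Ndufaf3 and Atp5g1, had no match to either set of letters.

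A promoter sequence was at hand for 75 of the 92 measured genes. The NRF1 letters were found in 14 of the 75 (18.7%), in 7.40% of the 13009 measured genes with a promoter, and in 3.74% of all 32851 promoters. The GABPA letters were also found in 14 (18.7%), beside 12.6% of measured genes and 6.91% of all promoters. Letters of YY1 (AAGATGGC) and of ERRA (TCAAGGTCA), further regulators of mitochondrial genes, were each found in 1 promoter of the chain (1.33%), Atp5j and Atp5g3 respectively, beside 2.09% and 0.361% of measured genes and 1.56% and 0.387% of all promoters. The median change was 0.20 in chain genes with the NRF1 letters and 0.14 in those without, and 0.16 and 0.14 for the GABPA letters. Over all measured genes the same split gave 0.05 and 0.00 for NRF1 and 0.075 and 0.00 for GABPA. These are matches of letters, which overlap in part between genes, and show neither binding nor its absence.

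The core subunits of complex I carry the electrons. Among them Ndufs7, which holds the last iron-sulfur cluster before coenzyme Q, stood apart, with 31304 upon fasting and 43404 upon feeding, a change of 0.52. Ndufs1, the largest subunit, read 12180 and 14659, a change of 0.29. Ndufv2, in the NADH-binding module, read 15761 and 18699, a change of 0.27. Ndufv1, its partner that binds NADH and the flavin, changed by 0.11. In the quinone-binding module Ndufs3 changed by 0.16 and Ndufs8 by 0.15.

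The supernumerary subunits of complex I, which surround the core and stabilise it, showed 23 higher and 6 lower of 29. Ndufb10, of the distal membrane arm, read 16855 upon fasting and 24037 upon feeding, a change of 0.53. Ndufa12, a relative of the assembly factor Ndufaf2, read 11748 and 16559, a change of 0.51, and Ndufa8 of the membrane arm 15082 and 20167, a change of 0.45. At the other end of this group was Ndufa3, at 14101 and 12807, a change of -0.12. The 6 lower genes, which were Ndufa3, Ndufa10, Ndufa7, Ndufb11, Ndufa1 and Ndufa9, all lay within 2 spot SDs of 0, and all 29 genes were higher when each array was divided by its median. The acyl carrier protein Ndufab1, which also serves mitochondrial fatty acid synthesis, changed by 0.27. No probe was assigned to Ndufb1, Ndufb4b or Ndufb4c.

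Complex II, succinate dehydrogenase, also belongs to the tricarboxylic acid cycle and has no subunit encoded by mitochondrial DNA. All 4 of its genes were higher, with a median of 0.12. Sdhd, a membrane anchor, read 27010 upon fasting and 34061 upon feeding, a change of 0.37. Sdhb, the iron-sulfur subunit, read 36652 and 40642, a change of 0.18. The flavoprotein Sdha, which holds the active site, read 19512 and 19649, a change of 0.03, and the other anchor, Sdhc, changed by 0.06, with a second probe at -0.05. Thus of this complex only Sdhd differed by more than 2 spot SDs, and it did not pass 2 SDs of the wider Feature Extraction error.

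In complex III, all 9 genes were higher, with a median of 0.18. Cyc1, the haem protein that passes electrons to cytochrome c, read 13719 upon fasting and 17829 upon feeding, a change of 0.39. Uqcrfs1, the Rieske iron-sulfur protein, read 29784 and 31981, a change of 0.14. Uqcr10, a small subunit, read 26379 and 31549, a change of 0.30, and its 3 probes gave 0.19 to 0.30. The core proteins Uqcrc1 and Uqcrc2 changed by 0.24 and 0.04. The range of the complex, from 0.04 to 0.39 by the brightest probes, was narrow and did not reach below 0. A second probe of Uqcrq gave -0.05. Uqcrh, Uqcrfs1, Uqcr11, Uqcrq and Uqcrc2 lay within 2 spot SDs of 0.

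Complex IV, cytochrome c oxidase, had the lowest median of the 5 complexes, 0.05 over 18 measured genes, of which 12 were higher and 6 lower. The complex has paired isoforms of several subunits, of which 1 is found in most tissues and the other mainly in heart and skeletal muscle, lung or testis. The 11 genes of the common subunits kept close to 0, with a range from -0.16 to 0.23. Cox7b, a small subunit, read 23022 upon fasting and 26439 upon feeding, a change of 0.23. Cox8a changed by 0.22, Cox4i1 by 0.10 and Cox6a1 by 0.03, and Cox7a2 by -0.001. Cox6b1, which faces cytochrome c, was at the low end, at 7374 and 6442, a change of -0.16, though it turned to 0.04 when each array was divided by its median. Ndufa4 changed by 0.03, and by -0.02 under normexp. Cox7a2l, which joins complexes III and IV into supercomplexes, changed by 0.17 with its brightest probe, and its 3 probes ranged from -0.11 to 0.17.

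The 6 measured tissue-restricted isoforms spread more widely, from -0.66 to 0.70, with 2 higher and 4 lower. Cox6b2, the isoform best known from testis, read 3359 upon fasting and 2064 upon feeding, a change of -0.66, the lowest of all 92 genes. Cox4i2, the lung isoform of Cox4i1, read 1430 and 1050, a change of -0.37. Ndufa4l2, a relative of Ndufa4 that responds to hypoxia, read 199 and 136, a change of -0.33, which shrank to -0.14 under normexp. These 3 were lower upon feeding by over 2 spot SDs, while their common partners Cox6b1, Cox4i1 and Ndufa4 changed by -0.16, 0.10 and 0.03. By the wider Feature Extraction error only Cox6b2 of the 3 passed 2 SDs. In the other direction, Cox7a1, the heart and muscle partner of Cox7a2, read 437 upon fasting and 643 upon feeding, a change of 0.70 that was 0.56 under normexp.

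The remaining isoforms were near background. Cox6a2, the muscle partner of Cox6a1, read 38.5 and 29.1, a change of -0.17, within the spot SD of its group. Cox8b, the muscle partner of Cox8a, was well above background only upon feeding, at 16.1 and 21.3. After normalization its own signals differed by 0.56 log2, in which the fasting signal is not a measured level, and by 0.07 under normexp. Markers of skeletal muscle and fat, where these isoforms are known to be abundant, were also read. Of the skeletal muscle markers 3 of 6 were measured. Acta1, the actin of skeletal muscle, read 16.4 and 10.2, and Tnnt3 read 8.78 and 13.9. Both were well above background on 1 array only, so their values of 0.00 and 0.02 are bounds and not measured changes. Of the fat markers 2 of 4 were measured, Cidea at 63.0 and 71.5, and Plin1, well above background on 1 array only, at 3.32 and 9.77. The value of Plin1, 0.00, is likewise a bound. Tnni2, a troponin of skeletal muscle, was above background on both arrays, at 74.96 and 70.7, a change of 0.13, and so was Cidea, with a change of 0.40. The part of these tissues in the values of Cox7a1 and Cox8b was not tested.

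Complex V, the ATP synthase, had a median of 0.12 over 17 genes, with 10 higher and 7 lower. In the F1 head and central stalk, where ATP is made, 4 of 5 genes were lower, with a median of -0.05. Atp5d, the delta subunit of the stalk, read 6817 upon fasting and 5107 upon feeding, a change of -0.38. The catalytic subunit Atp5b read 73045 and 67545, a change of -0.02, and Atp5a1, its partner in the ring, 42357 and 39660, a change of -0.05. Atp5e of the stalk changed by -0.10 and Atp5c1, the rotating gamma subunit, by 0.16. Of these 5 genes only Atp5d differed by more than 2 spot SDs, and none by more than 2 SDs of the wider Feature Extraction error. When each array was divided by its median, 4 of these 5 genes were higher and the median was 0.12, and only Atp5d was still lower, at -0.18. That scaling moved the whole brightest group to 0.21, and relative to this group the F1 genes lay lower under each scaling, between -0.07 and -0.09.

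The membrane part of complex V carries the protons. Its 5 small membrane subunits were all higher, from 0.10 to 0.20. The c-ring, which turns as protons pass, is encoded by Atp5g1, Atp5g2 and Atp5g3, which give the same mature protein. Atp5g1 read 31096 upon fasting and 40895 upon feeding, a change of 0.45, while Atp5g2 changed by -0.0025 and Atp5g3 by 0.12. Thus 1 of the 3 genes differed by more than 2 spot SDs. Of the 4 genes of the peripheral stalk, which holds the head still, Atp5h read 26354 and 32858, a change of 0.36, Atp5pb changed by 0.14, Atp5o by -0.02 and Atp5j by -0.18. Atpif1, which inhibits the enzyme when respiration fails and lies outside the rule, read 21423 and 19648, a change of -0.10 that was 0.11 when each array was divided by its median.

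**Figure D3:**
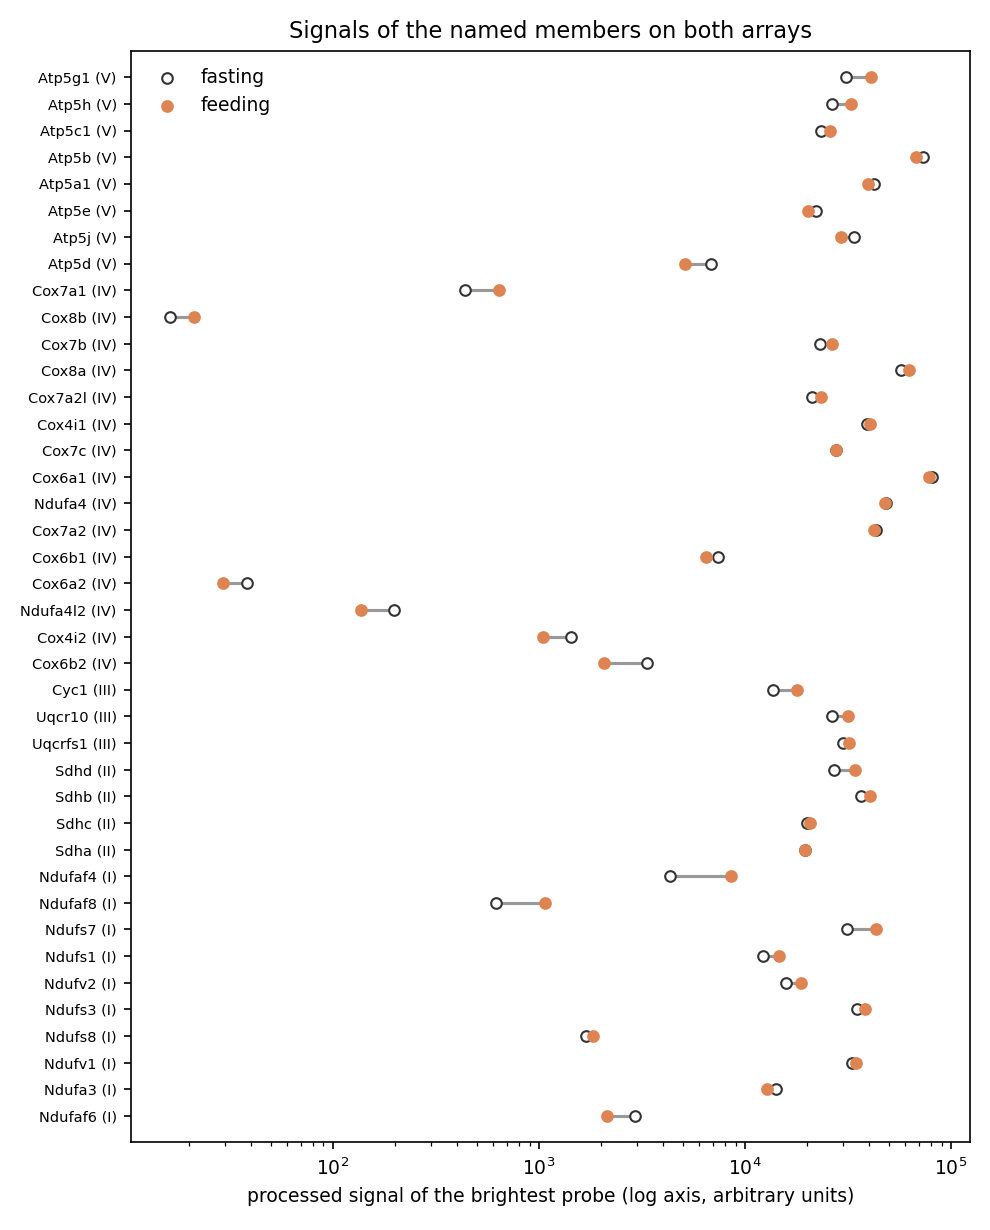
Processed signal of the brightest probe of each described gene (horizontal log axis, arbitrary units, before normalization) upon fasting (open circles) and feeding (filled circles), with the complex in parentheses. Most pairs nearly touch, and the gap is widest for Ndufaf4, from 4306 to 8545.

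Single genes around the chain passed 2-fold, as did 7.92% of all genes measured and 5.8% of the brightest group. Past 2-fold, all lower, were 2 of 16 measured regulators of mitochondrial biogenesis and 2 of 6 carriers for protons, phosphate and nucleotides. Of 14 cytochrome c and coenzyme Q genes 1 was past 2-fold higher and 1 lower. Of 8 other genes that feed coenzyme Q 1 was past 2-fold higher, and of 13 tricarboxylic acid cycle genes 1. Of 17 regulators of mitochondrial biogenesis 16 were measured, with a median of 0.14, 9 higher and 7 lower. Ppargc1a, the coactivator PGC-1α that is known to be induced in fasted liver, read 1434 upon fasting and 135 upon feeding, a change of -3.26, and its other probe gave -3.48. Ppargc1b, the related coactivator PGC-1β, read 133 and 37.3, a change of -1.62, or -0.65 under normexp. Esrra, a nuclear receptor that works with PGC-1α, changed by 0.58, and Tfam, which packs mitochondrial DNA, by 0.53, with its 3 probes at 0.43 to 0.53. Nrf1 changed by 0.42 with its brightest probe, its 3 probes ranged from 0.03 to 0.42, and their mean was 0.26. Gabpa changed by 0.03. Lower were Nr1d1, a receptor of the circadian clock, at -0.97, the transcription factor Yy1 at -0.23, the mitochondrial DNA polymerase Polg at -0.21, and Tfb2m and Polrmt, which transcribe mitochondrial DNA, both at -0.03. Ppargc1a and Ppargc1b were thus past 2-fold lower upon feeding, though Ppargc1b was not so under normexp. Pprc1, a further coactivator of the list, was higher, with a change of 0.48. Any relation of these changes to those of the chain genes was not tested.

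Of 42 assembly factors that the symbol rule left out, 40 were measured, with a median of 0.24, 33 higher and 6 lower, and none passed 2-fold. The furthest from 0 was Sdhaf1, which helps to place the iron-sulfur clusters of Sdhb, at 2622 upon fasting and 4542 upon feeding, a change of 0.83. Cox14, needed for the mitochondrially encoded part of complex IV, changed by 0.67. At the other end were Dmac2, of the distal arm of complex I, at -0.47, and Sco2, a copper chaperone of complex IV, at -0.38. Assembly factors of the chain, inside and outside the rule, thus had higher medians than the 0.13 of the subunits.

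Electron carriers and the other routes into the chain held a few larger changes. Cycs, cytochrome c itself, read 46446 upon fasting and 60453 upon feeding, a change of 0.44, though its 3 probes ranged from 0.04 to 0.44 and their mean was 0.26. Of the coenzyme Q genes, Pdss1, which makes the tail of the molecule, read 484 and 1122, a change of 1.32, and Coq10b, a coenzyme Q binding protein, 2663 and 871, a change of -1.54. The median of these 14 genes was 0.07. Of 8 genes that feed electrons to coenzyme Q past complexes I and II, with a median of 0.02, Gpd2, the mitochondrial glycerol-3-phosphate dehydrogenase, read 871 and 1904, a change of 1.20.

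Of the carriers for protons, phosphate and nucleotides 6 of 7 were measured, with a median of 0.24. Ucp2 and Ucp3, of the uncoupling protein family, were past 2-fold lower upon feeding. Ucp2 read 2034 and 903, a change of -1.10 that was -0.94 when each array was divided by its median. Ucp3 read 1426 and 573, a change of -1.22. The ADP/ATP carrier Slc25a5 changed by 0.26. The 13 genes of the tricarboxylic acid cycle had a median of 0.12, with 10 higher. Idh3a, the catalytic subunit of NAD-dependent isocitrate dehydrogenase, read 6180 and 12834, a change of 1.08, whereas its partners Idh3b and Idh3g changed by -0.41 and 0.18.

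**Figure D4:**
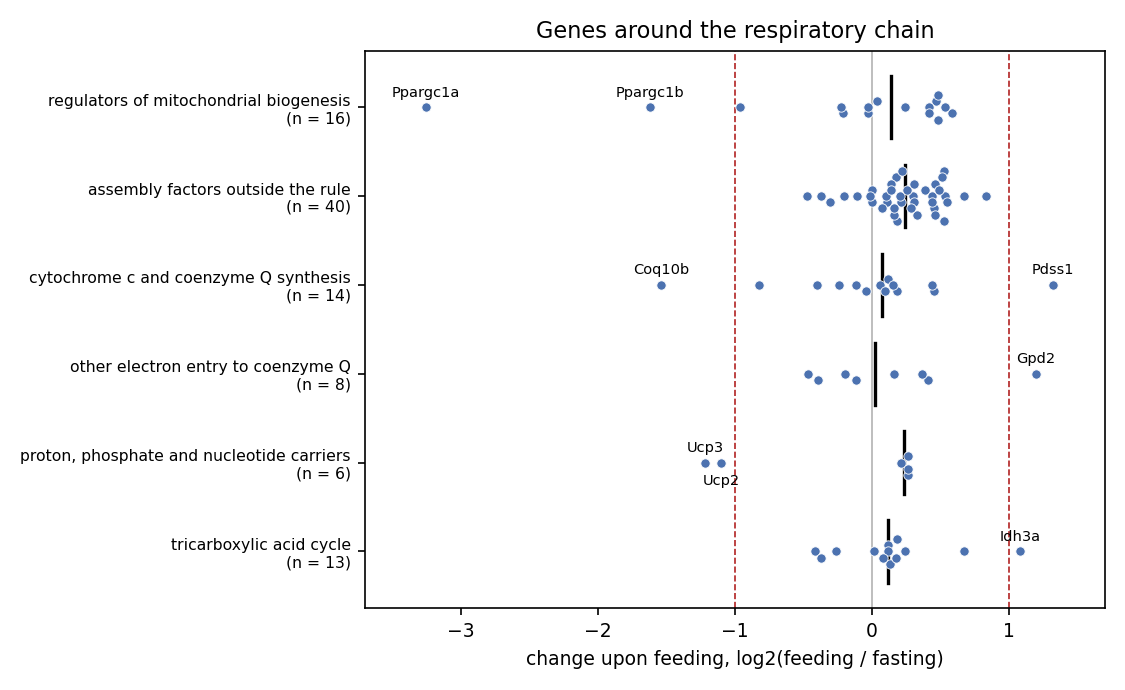
Log2 change, feeding over fasting (horizontal axis), of the measured genes of 6 lists around the respiratory chain. Points are genes, black bars the list medians, dashed lines 2-fold, and names mark genes past it. Ppargc1a at -3.26 and Ppargc1b at -1.62 lie far to the left, while the list medians stay between 0.02 and 0.24.

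Other large families of genes also had medians above 0. The 77 measured genes of mitochondrial ribosomal proteins, which translate the mitochondrially encoded subunits, had a median of 0.31, with 70 higher and 7 lower. The 83 genes of cytosolic ribosomal proteins had a median of 0.18, with 76 higher, and the 49 proteasome genes 0.14, with 34 higher. The chain, at 0.14, lay below both ribosomal families and beside the proteasome genes, which were at 0.10 under normexp where the chain was at 0.15. No test of the difference between families could be made.

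The makeup of the tissue was read from marker genes. The 8 hepatocyte markers, all measured, had a median change of -0.07, with 6 lower. Tat was furthest at -0.97, then Hnf4a at -0.43 and Cps1 at -0.33. Alb and Apoa1 changed by -0.07 each and Ttr by -0.02, whereas Asgr1 was higher, at 0.23, and so was Apob, at 0.03. When each array was divided by its median, 5 hepatocyte markers were higher and 3 lower. All 5 measured of 6 markers of Kupffer cells and leukocytes were lower upon feeding, with a median of -0.41, Adgre1 furthest at -0.89. Under the division by the median 3 of these 5 were lower and 2 higher, with a median of -0.22. Of the 6 endothelial and stellate markers 4 were lower and 1 higher, with a median of -0.42, Pecam1 furthest at -1.04. The 4 cholangiocyte markers had a median of 0.13, with Sox9 at 2.11 and Krt19 at -0.31. Epcam changed by 0.08 and Krt7, well above background on 1 array only, by 0.19. All but Sox9 lay in the dimmest group. The 3 measured of 5 red blood cell markers ranged from -0.23 to 0.01. In pooled tissue, fewer cells of a type and less RNA per cell cannot be told apart, and the part of cell makeup in the small changes of the chain was not tested.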

How the data were processed

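RNA of pooled livers was labelled with Cy3 and hybridised to an Agilent mouse array, 1 array for each condition. The authors extracted the spots with Agilent Feature Extraction 11.0.1.1, per the file headers, and deposited intensities of every spot, namely its raw median, its local background and a processed signal that already had background taken off. Other deposited columns are flags for control, outlier, saturated and well above background spots. None of these intensities is normalized between arrays. According to the study's methods, quantile normalization and a 2-fold filter followed. Each array holds 44397 spots, 43020 of them for transcripts, and none was saturated. Spots for transcripts were well above background at 63.1% upon fasting and 72.3% upon feeding, with median processed signals of 61.5 and 52.8. The series' value table equals the mean local background of the same spot for 44397 of 44397 spots on each array (relative tolerance 1e-06), with medians of 30.0 and 22.4, and was not used. There were no columns of the authors' own comparisons.

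Control and outlier spots were dropped, log2 processed signals were averaged over the spots of a probe, and the 39402 probes were quantile normalized. Through the RefSeq table of GRCm38.p6, 27218 probes (69.1%) were named by transcript. A gene is its probe with the highest mean signal, kept if well above background on at least 1 array. A probe not well above background on the other array is set there to the higher of its own signal and the lowest signal well above background, which gives a bound, and 0 where that bound points the wrong way. With 1 array for each condition no test was run, and the number of arrays limits the precision.

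Alternatives were division by the 75th percentile or the median of each array, normexp correction (limma 3.58.1, R 4.3.3, offset 50), the mean over probes, other filters and no bound. Normexp was run on the median signal. Naming by the scanner files' own gene names was not run, since the files used here have no such column. Python 3.11.15, numpy 2.4.6 and pandas 2.3.3 were used, and the counting of changed genes was tested on simulated data.

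The genes named with values were the members past 2-fold, the 2 largest rises and 2 largest falls of each complex among genes with all probes measured and in 1 direction, the core subunits of complex I, complex II, the catalytic subunits of complex III, the F1 head, the tissue-restricted isoforms beside their common partners, genes whose probes differ in direction by over 0.3 log2, and fixed genes and those past 2-fold in the other lists. A gene that this rule selects is not reported here. Other genes were named after their values were seen. The members and lists were chosen with earlier results of these data known.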

Additional observations from a re-analysis of the deposited data

How the results depend on the processing

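The median of the chain genes was above that of all genes under all 7 alternatives, and so were the medians of complexes I to V. Dividing each array by its median moved the median of all genes to 0.09 and that of the brightest group to 0.21. Relative to all genes, the medians were then 0.25 for the chain, 0.27 for complex I, 0.24 for complex II and 0.15 for complex IV. Relative to the brightest group, these 4 medians were 0.13, 0.15, 0.12 and 0.04, beside 0.12, 0.15, 0.11 and 0.04 under quantile normalization. With this division by the median 2 genes passed 2-fold (Ndufaf4 and Ndufaf8), 12 passed 1.5-fold and 84 lay above the median of all genes. Scaling by the 75th percentile gave 7 genes past 1.5-fold and 80 higher. No gene passed 2-fold under normexp (0), with the mean over probes (0) or among subunits only (0), which leaves out Ndufaf4. Of 67 medians and counts under alternatives, 57 stayed within the spread of spots or 1.5 times the count, and 10 moved. Of 280 changes of the 56 named genes, 215 stayed within the spread of spots and 65 moved by more. In 17 the sign differed, all of them of genes within 0.20 of 0.

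No paired analysis was possible because each condition has 1 array, and no replicate can be left out. Dim probes limit the values of Cox6a2, Cox8b and Ndufaf5, and a change below the spread of spots was not detectable.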
